A study of Mus musculus with 2 samples.

Results

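Natural killer (NK) cells were described in single-cell RNA of mouse optic nerves that carry a low-grade glioma. Barcodes were selected by their own counts: at least 2 UMIs (unique molecular identifiers, which count captured RNA molecules) of the NK receptor genes Ncr1, Klrb1c and Klre1 together, no UMI of the CD3 genes Cd3d, Cd3e and Cd3g, and none of Cd79a or Csf1r, which mark B cells and microglia. Of 19834 kept barcodes, 246 met this rule, 155 of 15726 in the vancomycin library and 91 of 4108 in the control library. They are called NK-rule cells below, and the levels of the rule's genes are a description of the choice, not a result.

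Each library came from the pooled optic nerves of 10 Nf1-OPG mice at 12 weeks of age. All mice carried a germline Nf1 allele with a neomycin cassette in exon 31 and a floxed Nf1 allele that GFAP-Cre removes in neuroglial progenitors (Nf1flox/neo; GFAP-Cre), so the NK cells of both groups came from animals that carry the neomycin allele in the germline. The vancomycin group received this antibiotic from 6 to 12 weeks of age. The other library is labelled control, and the design text of the series names PBS as the alternative to vancomycin over the same weeks. Optic nerve is the tissue label of both libraries, and the protocol also describes sorted cells of the meningeal dura. With 1 library per group there is no replicate, no test is possible, and every interval is a 95% exact interval that covers counting error only. The limit given for a count of 0 is 3 counts of the total, not such an interval.

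NK cells are innate lymphocytes that kill target cells by releasing perforin and granzymes, and that make interferon gamma, tumour necrosis factor and chemokines. Activating receptors signal through the adaptors Tyrobp and Fcer1g, while receptors of the Ly49 family (Klra genes) and the Klrc1-Klrd1 pair mostly bind MHC class I and restrain the cell. The transcription factors Eomes and Tbx21 direct their development. Tissues also hold related innate lymphocytes that share the NK receptors, often lack Eomes and carry residency genes such as Cxcr6.

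The label was checked against genes that the rule did not use. Nkg7, a granule membrane gene, had a UMI in 98.1% of NK-rule cells of the vancomycin library and 98.9% of those of the control library. It was in 0.590% and 1.01% of the Csf1r-positive barcodes (at least 2 Csf1r UMIs and no CD3, Cd79a or NK receptor UMI), a type that should lack it. Gzma (granzyme A) was in 54.2% and 67.0% of NK-rule cells against at most 0.253% of Csf1r-positive barcodes in either library. Prf1 (perforin) was in 49.0% and 67.0%, and Eomes in 44.5% and 60.4%, of NK-rule cells, and both were in at most 0.0536% of Csf1r-positive barcodes. The median depth was 4333 and 4836 UMIs in NK-rule cells and 7117.5 and 5185 in Csf1r-positive barcodes. These genes were therefore present as the name requires, although many cells had no Eomes UMI. The comparison with Csf1r-positive barcodes does not separate NK cells from T cells. In CD8 T cells, by the gate given below, Nkg7 had a UMI in 98.4% and 96.5%.

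The NK receptors overlapped within cells. Ncr1 was found in 136 and 81 cells, Klrb1c in 124 and 71, Klre1 in 127 and 67, and all 3 in 85 and 44, with a median of 7 and 6 receptor UMIs per cell. Just inside the rule, 10 and 14 cells had exactly 2 receptor UMIs, and their summed Nkg7 level was 1048 and 1704 CPM (counts per 1000000 UMIs of the cells summed, the unit of all levels below). Just outside, 45 vancomycin and 13 control barcodes had 1 receptor UMI, with Nkg7 at 31.6 and 1841 CPM and a median of 10924 and 1217 UMIs. Nkg7 just outside the rule was thus near its level inside in the control library and far below it in the vancomycin library. No barcode left out by the quality filter met the rule (0 of 870 and 0 of 164, which allows up to 0.345% and 1.83%). A UMI of Trac, a T cell receptor constant gene, was in 8 and 5 NK-rule cells. The libraries shared 100 barcode sequences, none of which was an NK-rule cell in both, and 3 NK-rule cells had a barcode sequence found anywhere in the other library.

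RNA of other cells was unequal between the libraries. In the vancomycin library 32 of the 155 NK-rule cells held at least 10 UMIs from the marker list of another cell type (8 lists, without Mbp and immunoglobulin genes whose free RNA is widespread), and in the control library 0 of 91 did, which allows up to 3.30%. Of these mixed barcodes, 18 passed the limit by myelin and oligodendrocyte genes and 13 by dendritic cell genes. Their median depth was 11432.5 UMIs, against 3964 in the 123 other vancomycin cells. Over all NK-rule cells the myelin list summed to 12972 CPM in the vancomycin and 185 CPM in the control library, and without the mixed barcodes it summed to 1239 CPM. The dendritic cell list summed to 5105 and 138 CPM, and to 183 CPM without the mixed barcodes. The doublet score of Scrublet was above 0.2 in 12 vancomycin NK-rule cells, all of them mixed, and in 0 control cells. In the CD8 T cells of the same libraries 18.8% and 4.38% of barcodes were mixed by the same limit. Library ratios of NK-rule cells are given with and without the mixed barcodes, a setting chosen after the data were seen, and those of CD8 T cells without their own mixed barcodes. The part of foreign RNA in what remains was not tested.

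**Figure D1:**
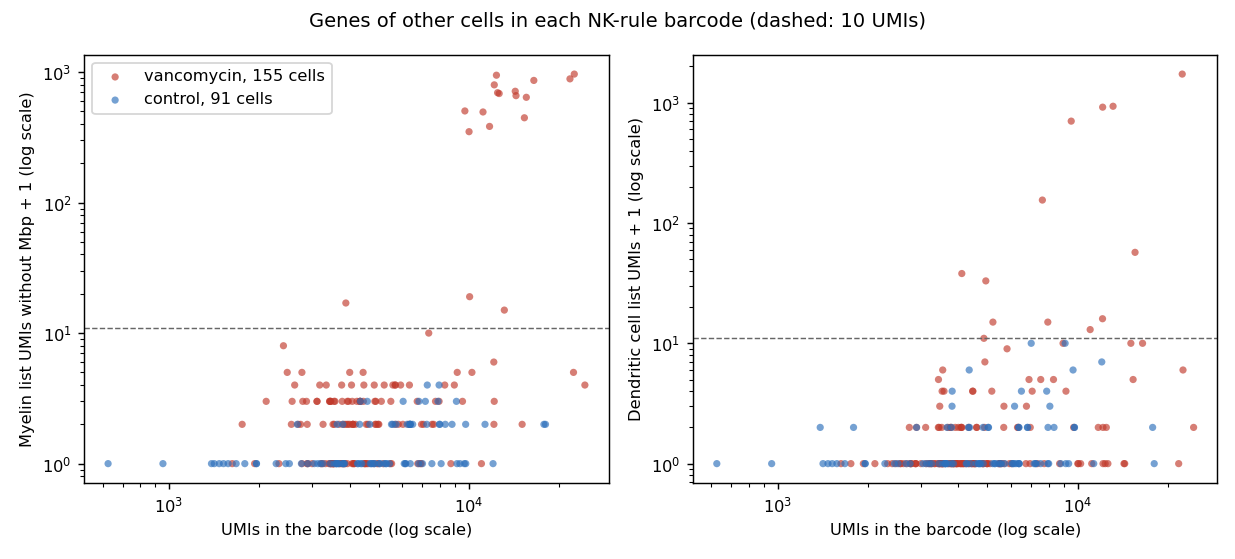
UMIs of the myelin list (left; Mbp not counted) and of the dendritic cell list (right) against all UMIs of a barcode, for each of the 155 vancomycin and 91 control NK-rule cells, all on log scales with 1 added to the list's UMIs. The vancomycin cells far above the dashed line of 10 UMIs lie at high total UMIs, and no control cell is on or above it.

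Promoter sequence was taken from RefSeq (GRCm38.p6) to show the sequence in front of the receptor gene Ncr1 that helps define NK cells, of granzyme A and of the chemokine Xcl1. Each window holds the 250 bases before the annotated start, 5′ to 3′ on the gene's strand, and capitals mark 2 motifs searched on both strands: TGTGGTT, the core bound by Runx factors, and GGTGTGA, a core bound by T-box factors such as Eomes and Tbx21. The windows are chr7:4337465-4337714 (plus strand) for Ncr1, chr13:113100982-113101231 (minus strand) for Gzma and chr1:164935523-164935772 (minus strand) for Xcl1, which was added after its matches were seen.
Ncr1: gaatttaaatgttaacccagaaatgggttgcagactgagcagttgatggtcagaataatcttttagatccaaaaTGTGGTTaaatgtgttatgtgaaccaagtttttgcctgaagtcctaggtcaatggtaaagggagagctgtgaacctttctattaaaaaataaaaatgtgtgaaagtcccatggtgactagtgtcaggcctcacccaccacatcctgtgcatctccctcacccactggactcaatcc
Gzma: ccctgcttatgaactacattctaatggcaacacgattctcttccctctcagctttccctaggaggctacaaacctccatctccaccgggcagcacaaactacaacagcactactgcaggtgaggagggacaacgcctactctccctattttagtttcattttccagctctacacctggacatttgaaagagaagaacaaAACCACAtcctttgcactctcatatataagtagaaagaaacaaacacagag
Xcl1: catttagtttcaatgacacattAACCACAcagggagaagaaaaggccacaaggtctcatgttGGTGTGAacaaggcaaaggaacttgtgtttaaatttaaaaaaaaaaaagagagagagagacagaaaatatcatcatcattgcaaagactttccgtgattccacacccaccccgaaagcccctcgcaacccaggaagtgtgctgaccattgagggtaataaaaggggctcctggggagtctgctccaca
The Runx core starts 176 bases before the start of Ncr1 on the same strand and lies on the opposite strand 51 bases before that of Gzma and 228 bases before that of Xcl1. The T-box core lies 188 bases before the start of Xcl1. Among 20 genes (the 15 highest over CD8 T cells and the 6 markers, Gzma being in both), 18 had a promoter in the table. Of these, 4 held the Runx core (Gzma, Gzmc, Klre1 and Ncr1) and 0 the T-box core. Of all 32851 promoters of this length, 4.4% held the Runx core and 3.33% the T-box core. A match describes letters in the window and shows no binding.

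NK-rule cells were a smaller share of the vancomycin library, while the intervals of their number per CD8 T cell overlapped. They made up 0.986% (0.837 to 1.15) of kept vancomycin barcodes and 2.22% (1.79 to 2.71) of kept control barcodes. Against CD8 T cells (at least 2 CD3 UMIs, a Cd8a or Cd8b1 UMI, no UMI of Cd4, Cd79a, Csf1r or an NK receptor; 1158 and 708 barcodes) there were 13.4 (11.2 to 15.8) and 12.9 (10.2 to 16.0) NK-rule cells per 100. Among barcodes with a UMI of Ptprc, the pan-leukocyte gene, the shares were 1.94% (1.65 to 2.28) and 2.89% (2.32 to 3.55). With each cell first thinned to 1000 UMIs, 0.560% (0.446 to 0.693) and 1.0% (0.707 to 1.38) of cells met the rule, or 7.88 (6.23 to 9.86) and 6.12 (4.26 to 8.53) per 100 CD8 T cells. Without mixed barcodes the counts per 100 CD8 T cells were 13.1 and 13.4. The share of all barcodes depends on the other cells captured, and the vancomycin library held 16596 barcodes against 4272. Barcodes that met the receptor rule but had a CD3 UMI, which the rule leaves out, numbered 247 and 138.

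**Figure D2:**
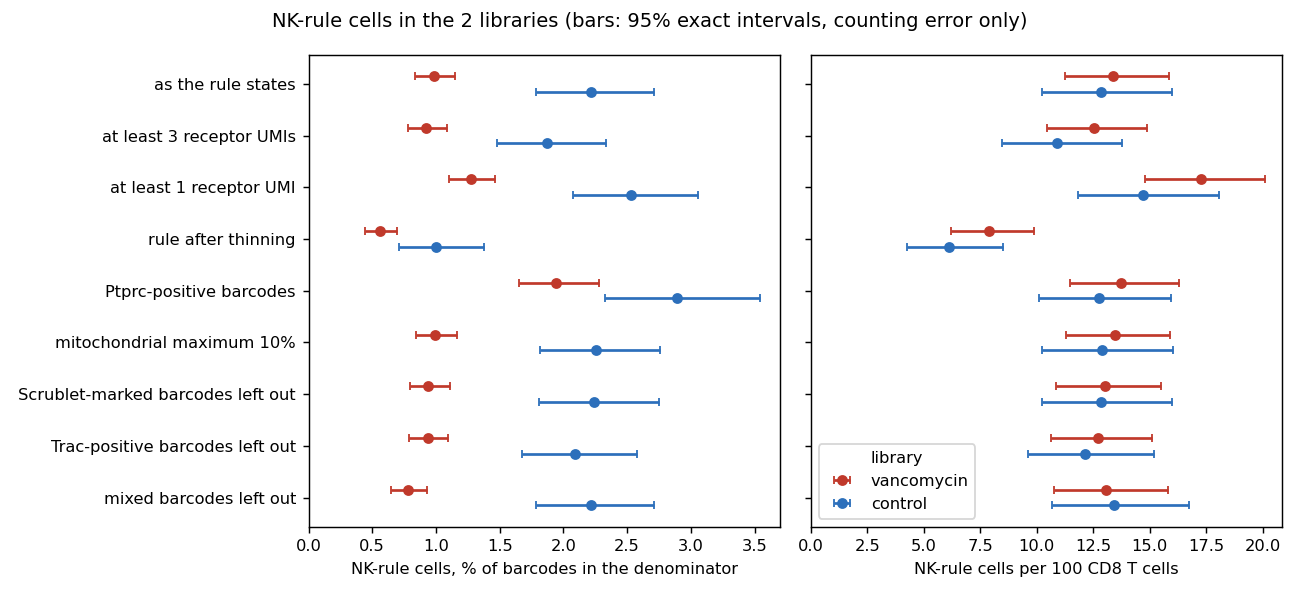
NK-rule cells as a percent of barcodes (left) and per 100 CD8 T cells (right) under the rule and its alternatives, with 95% exact intervals for counting error. The share of barcodes is lower in the vancomycin library in every setting shown, and the intervals of the ratio to CD8 T cells overlap in each.

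Compared with CD8 T cells of the same library, NK-rule cells had high levels of Fcer1g, Tyrobp, Gzma, Gzmc and 4 Klra genes, and low levels of Pdcd1, Lag3, Ctla4, Icos and Cd28. All barcodes of both classes, mixed ones included, enter these values except where stated. The CD8 T gate leaves out barcodes with an NK receptor UMI. T cells in which these receptors were found are thus absent from it, and their effect on contrasts in receptor and adaptor genes was not tested. Of 7680 genes measured (at least 20 UMIs in NK-rule cells over both libraries), 166 (2.16%) exceeded CD8 T cells by 2-fold or more in both libraries and 45 (0.586%) lay below them by as much, on the scale log2((CPM + 10)/(CPM + 10)). Without mixed barcodes in either class these were 204 and 59. Since a gene had to be measured in NK-rule cells, some genes high only in CD8 T cells are missing from the lower counts. Fcer1g, the signalling adaptor of Ncr1, was at 2160 CPM in NK-rule and 38.0 CPM in CD8 T cells of the vancomycin library, and at 2334 and 5.57 CPM in the control library. Tyrobp (DAP12), another adaptor, was at 1808 against 66.1 CPM and at 2033 against 4.36 CPM. Gzma was at 1924 against 66.7 CPM and at 3706 against 40.2 CPM, a log2 ratio of 4.66 and 6.21. Both libraries thus showed these genes above CD8 T cells. Without mixed barcodes in either class the log2 ratios were 7.56 and 7.32 for Fcer1g, 7.36 and 7.31 for Tyrobp, and 4.76 and 6.14 for Gzma.

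The Ly49 receptor genes Klra4, Klra7, Klra8 and Klra9 lay between 79.6 and 299 CPM in NK-rule cells and at or below 1.48 CPM in CD8 T cells. The Klra genes are near-identical copies, so counts may be split among them. Klrb1a, Klrb1b and Klrb1f, members of the NKR-P1 family, were at 169, 383 and 184 CPM in the vancomycin and 142, 342 and 83.4 CPM in the control library, and at most 8.62 CPM in CD8 T cells. Gzmc, a granzyme in a cluster of similar genes, was at 341 and 193 CPM against 0.269 and 0.484 CPM, but it was found in only 12 and 9 NK-rule cells. Also among the 15 highest were Clnk, a signalling adaptor, Cited4, a transcriptional coregulator, and Aoah, an enzyme that inactivates bacterial lipopolysaccharide.

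Among the 15 lowest, Pdcd1 (PD-1) was at 49.5 CPM in NK-rule and 575 CPM in CD8 T cells of the vancomycin library, and at 36.6 and 416 CPM in the control library. Lag3 and Ctla4, other checkpoint receptors, had log2 ratios of −2.01 and −1.61 in the vancomycin and −2.20 and −2.47 in the control library. Icos and Cd28, which costimulate T cells, had −1.64 and −1.64, and −2.78 and −2.10. Ifi27l2a, an interferon-inducible gene, had −3.60 and −5.08, and Ly6c2 −2.06 and −3.35. By list, and without the rule's genes, 12 of 20 measured activating receptor and adaptor genes were higher in NK-rule cells in both libraries and 0 lower. Of 17 measured genes of the inhibitory and checkpoint receptor list 9 were higher and 2 lower. That list also holds Klra4 and Klra8, which encode activating receptors. Of the cytotoxic granule list 5 of 18 measured members were higher and 0 lower. Gzmk, another granzyme, had 10 and 6 UMIs in NK-rule cells and so was not measured. Without mixed barcodes it was at 346 and 493 CPM in CD8 T cells, with log2 ratios of −3.78 and −4.50. Of 15 NK transcription factors 2 were higher and 0 lower. Without mixed barcodes the higher and lower counts were 12 and 0, 8 and 2, 6 and 0, and 2 and 0. Nkg7 was at 1905 CPM in NK-rule and 2418 CPM in CD8 T cells of the vancomycin library, and at 2161 and 1578 CPM in the control library. Its log2 ratio without mixed barcodes was −0.24 and 0.41, of opposite sign in the libraries.

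**Figure D3:**
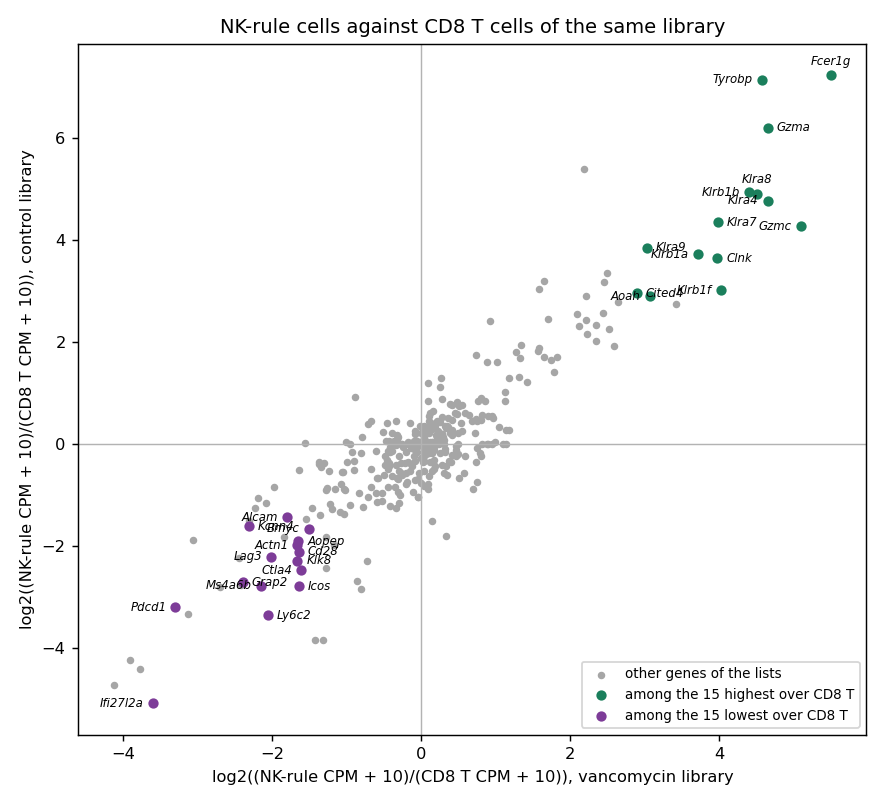
Log2 ratio of NK-rule over CD8 T cells in the vancomycin (horizontal) and control (vertical) library, per gene with 10 CPM added; green and violet points are genes among the 15 furthest up and down in both, grey points other genes of the lists without those that define the gates. Fcer1g, Tyrobp and Gzma are at the upper right, and Pdcd1 and Ifi27l2a at the lower left.

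Between the libraries, transcripts of Ifng, Tnf, Ccl4 and Ltb were higher and those of Prf1, Gzma, Gzmb, Cd27, Irf8, Eomes, Ccl5 and Cxcl10 lower in NK-rule cells of the vancomycin library. The sums held 929306 UMIs in the vancomycin and 491327 UMIs in the control library. Of 7683 measured genes, the vancomycin library exceeded the control by 2-fold or more in 887 (11.5%) and lay below it by 2-fold or more in 360 (4.69%). Without the mixed barcodes these were 249 (3.96%) and 297 (4.72%) of 6294, so the share of 2-fold differences that were higher went from 71.1% to 45.6%. The interval of the plain ratio lay above 1 for 18.4% and below 1 for 16.7% of genes, and without mixed barcodes for 11.3% and 15.9%. The share of 2-fold differences that were higher was 57.6% without barcodes marked by Scrublet and 48.7% with cells thinned to 1000 UMIs. A gene was measured by its UMIs over both libraries, and the vancomycin sum is larger. Genes found only there can thus pass, such as Ifitm3 (145 and 0 UMIs), and enter the higher counts. Counts of every list below are to be read against the shares over all genes, which hold the same limit.

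The libraries were also processed with different Cell Ranger versions (7.2.0 and 6.0.1), and some genes differed between them in all the cell types compared. Cmss1 was at 9016 against 20.4 CPM in NK-rule cells, with log2 ratios from 8.11 to 9.08 in 5 reference gates (CD8 T, CD4 T, Csf1r-positive, Cd79a-positive and collagen-positive barcodes). A further value therefore subtracts the median log2 ratio of these gates, gene by gene, and it also removes any difference that those cells share. On this scale, without mixed barcodes, 96 genes (1.53%) were past 2-fold upward and 121 (1.92%) downward. It is called the value less the reference below. The version cannot be told apart from the treatment.

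The 10 genes with the highest ratios, by the rule for named genes, were mostly those of oligodendrocytes. Apod (1175 UMIs), Tubb4a (965), Klk6 (565), Enpp2 (455), Pcdh9 (450) and Nkain2 (310) had no UMI in control NK-rule cells. With the control placed at a floor of 3 counts over its NK-rule cells, Apod was at least 207-fold higher, and the interval of its ratio began at 168. Without mixed barcodes these values were 3.75 and 2.64. Klk6 had 0 UMIs once mixed barcodes were left out. Aplp1 and App, with 2 and 1 control UMIs, were at 1053 and 574 CPM and, without mixed barcodes, at 14.1 and 12.3 CPM. Only Cmss1 and Heph among these 10 kept their level (9385 and 1555 CPM without mixed barcodes), and both differed by 4.77 or more on the log2 scale in all 5 reference gates.

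Of the cytokine and chemokine list, 4 of 9 measured genes were 2-fold or more above the control (Ifng, Tnf, Ccl4 and Ltb) and 0 below. Their median log2 ratio was 0.92, and that of all measured genes 0.01. Without mixed barcodes 7 of 9 were higher and the median was 1.46 against −0.06, and less the reference 4 were higher, with 0.92 against −0.09. Ifng (chromosome 10: 118441046 to 118445892, mm10), the main activator of macrophages made by NK cells, was at 124 CPM in the vancomycin and 34.6 CPM in the control library. It was found in 36 of 155 and 8 of 91 cells, and its plain ratio was 3.58 (2.14 to 6.35). Without mixed barcodes its log2 ratio was 1.79. Without the cell of most Ifng UMIs in each library it was 2.04, and 2.39 with mixed barcodes left out too. In CD8 T cells of the same libraries the log2 ratio of Ifng was 1.0. Whether the 2 cell types differ in it was not tested.

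Tnf was at 68.9 and 22.4 CPM (22 and 8 cells), a log2 ratio of 1.28 and of 1.57 without mixed barcodes. Xcl1, which attracts cross-presenting dendritic cells, was found in 131 of 155 vancomycin and 56 of 91 control cells. It was at 1330 CPM in the vancomycin and 887 CPM in the control library, and at 1828 CPM without mixed barcodes, where its log2 ratio was 1.03. With cells thinned to 1000 UMIs, 56.1% (47.9 to 64.1) and 34.8% (25.0 to 45.7) of NK-rule cells had an Xcl1 UMI, and 28.3% and 17.3% of all CD8 T cells. Xcl1 was also higher in CD8 T cells of the vancomycin library (1.88). Ltb (lymphotoxin beta) was at 768 and 342 CPM (1.15, and 1.47 without mixed barcodes). Ccl5, a chemokine for T cells, went the other way, at 3663 and 6397 CPM, and 5062 CPM without mixed barcodes (−0.34). So did Cxcl10, an interferon-induced chemokine outside the list, at 66.7 and 201 CPM (−1.46, and −1.16 without mixed barcodes). Cxcl10 was found in only 14 of 155 vancomycin and 10 of 91 control cells, and 1 control cell held 38 of its 99 UMIs.

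Further members were chosen after their values were seen. Ccl4, a chemokine for T cells and monocytes, was at 312 and 126 CPM (49 and 15 cells), a log2 ratio of 1.24, and 1.57 without mixed barcodes, with 1.85 in CD8 T cells. Csf2 (GM-CSF) was at 93.6 and 44.8 CPM, but 1 vancomycin cell held 53 of its 87 UMIs and 1 control cell 21 of 22. Its log2 ratio of 0.92 was 1.96 without these cells, and thus rests on few cells.

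Granule genes did not move one way. Of 18 measured members of the list, 2 had intervals above 1 and 9 below 1, and without mixed barcodes 4 and 4. By fold, 1 was past 2-fold upward and 3 downward (median −0.31), and without mixed barcodes 1 higher and 1 lower, with −0.12. Gzma (chromosome 13: 113093825 to 113100981) was at 1924 CPM in the vancomycin and 3706 CPM in the control library, and at 2573 CPM without mixed barcodes. Its log2 ratio was −0.94, and −0.52 without mixed barcodes, with a UMI in 84 of 155 and 61 of 91 cells. Prf1 (chromosome 10: 61297833 to 61304680) was at 195 and 478 CPM, and at 266 CPM without mixed barcodes (−1.25 and −0.82). In CD8 T cells both genes were higher in the vancomycin library (0.86 and 0.40). Nkg7 was at 1905 and 2161 CPM (−0.18, and 0.19 without mixed barcodes).

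Serpinb9, the inhibitor that shields killer cells from their own granzyme B, was at 510 and 1231 CPM (−1.26, and −1.01 without mixed barcodes), in 124 and 81 cells. Lamp1, a lysosomal membrane gene, was the 1 member at least 2-fold higher, and its log2 ratio went from 1.27 to −0.25 without mixed barcodes. The member higher without mixed barcodes was Gzmc (1.01), of whose 317 vancomycin UMIs 190 came from 1 cell. Without the cell of most UMIs in each library its log2 ratio, mixed barcodes left out, was −0.59. Gzmb (granzyme B) was at 349 and 841 CPM (−1.25, and −0.78 without mixed barcodes), with 120 of 413 control UMIs in 1 cell. Without the cell of most UMIs in each library its log2 ratio was −0.91, and that of Serpinb9, mixed barcodes left out, −0.94. Gzmc and Gzmb were named after their values were seen.

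Of 23 measured activating receptors and adaptors, which include the rule's 3 receptor genes, 3 had intervals above 1 and 3 below 1, and without mixed barcodes 12 and 0. Klre1 (1.21 to 1.80) is among these 12, and Ncr1 and Klrb1c are not. As genes of the rule they describe the choice of cells, and they also enter the medians given next. By fold 2 were past 2-fold upward and 0 downward, with and without mixed barcodes. The median was 0.05, and 0.39 without mixed barcodes, against 0.01 and −0.06 over all genes. Klrb1f, an NKR-P1 receptor, was at 184 and 83.4 CPM in 93 and 26 cells, a log2 ratio of 1.05, and 1.45 without mixed barcodes. In CD8 T cells it was at 1.89 and 1.45 CPM. Sh2d1a (SAP), the adaptor of the SLAM receptors, was at 94.7 and 40.7 CPM (1.05 and 1.43). The log2 ratios of Fcer1g (2160 and 2334 CPM) and Tyrobp (1808 and 2033 CPM) were −0.11 and −0.17, and 0.26 and 0.21 without mixed barcodes.

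Of 17 measured genes of the inhibitory and checkpoint receptor list 1 was higher and 1 lower, with a median of −0.17, and 0.20 without mixed barcodes. Klrd1, the partner of the NKG2 receptors, was at 569 and 543 CPM. The higher gene was the checkpoint receptor Lag3 (57.0 and 22.4 CPM; 1.05, and 1.38 without mixed barcodes). The lower was Klrg1, a receptor of mature NK cells (8.61 and 38.7 CPM, 8 and 19 UMIs; −1.39, and −1.01 without mixed barcodes). The Ly49 genes, given as a group after their values were seen, had log2 ratios from −0.73 (Klra9) to −0.10 (Klra4), and from −0.52 to 0.36 without mixed barcodes.

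Of 15 measured NK transcription factors 2 were higher and 3 lower, and without mixed barcodes 1 and 1. Over all measured genes 11.5% were higher and 4.69% lower, and without mixed barcodes 3.96% and 4.72%. The list was not tested against these shares. Eomes (chromosome 9: 118478212 to 118486132) was at 148 CPM in the vancomycin and 395 CPM in the control library, a log2 ratio of −1.35, and −1.0 without mixed barcodes. In CD8 T cells its ratio was −0.86. Irf8 was at 465 and 1089 CPM in 106 and 70 cells, a log2 ratio of −1.21, and −0.94 without mixed barcodes, while in CD8 T cells it was 1.60. This factor is best known from dendritic cells and also acts in NK cells. Bhlhe40 was at 409 and 694 CPM (−0.75 and −0.53). Zeb2, a factor of mature NK cells, had a log2 ratio of 1.56, and 0.20 without mixed barcodes. Runx3 (145 and 346 CPM), Tbx21 (263 and 297 CPM) and Id2 (605 and 293 CPM) were named after their values were seen. Their log2 ratios were −1.20, −0.17 and 1.02, and without mixed barcodes −0.91, −0.01 and 1.26. That of Id2 was 0.97 without the cell of most UMIs in each library, and 1.40 in CD8 T cells.

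Of 21 measured cytokine receptor and signalling genes 0 were higher and 5 lower, with a median of −0.36. Without mixed barcodes 2 of 20 were lower, and less the reference 1 was. The shares of all genes that were lower in these 3 readings were 4.69%, 4.72% and 1.92%. Il2rb, the beta chain of the interleukin 2 and 15 receptors, was at 1012 and 2389 CPM (−1.23, and −0.82 without mixed barcodes). Il21r was at 132 and 368 CPM (−1.41 and −1.26) and Ifngr1 at 804 and 2100 CPM (−1.37 and −1.17). In CD8 T cells of the vancomycin library all 3 were lower too, by log2 ratios of −0.61, −1.29 and −1.53.

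By stage of development, Cd27, a receptor of less mature NK cells, was at 65.6 and 212 CPM (−1.55, and −1.18 without mixed barcodes). Of 11 immature NK genes 1 was higher and 1 lower, and without mixed barcodes 3 and 1. Of 8 mature NK genes 2 were higher and 4 lower, with a median of −0.88, and without mixed barcodes 1 higher and 2 lower, with −0.58. Their members thus did not move one way. Ly6c2 was at 204 and 102 CPM (0.94, 1.34 without mixed barcodes and 1.18 without the cell of most UMIs in each library). S1pr5, which guides exit from tissues but is also high in oligodendrocytes, went from 1.36 to −0.23 without mixed barcodes.

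Of 13 measured genes of the type 1 innate lymphoid cell and residency list 3 were higher and 2 lower, with a median of 0.51. Without mixed barcodes 5 of 12 were higher and 1 lower, with 0.85, and less the reference 6 and 1. Cd69, an activation and retention gene, was at 183 and 59.0 CPM in 50 and 11 cells (1.48, and 1.82 without mixed barcodes), against 0.76 in CD8 T cells. Rgs1 was at 540 and 1128 CPM (−1.05), but its log2 ratio was 1.03 less the reference and without mixed barcodes. Of 18 homing and adhesion genes 1 was higher and 2 lower, against 11.5% and 4.69% of all genes. Their median was −0.58, and −0.43 without mixed barcodes. Itgal (LFA-1) was at 137 and 338 CPM (−1.25 and −0.89) and Itgb1 at 479 and 938 CPM (−0.96 and −0.71).

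**Figure D4:**
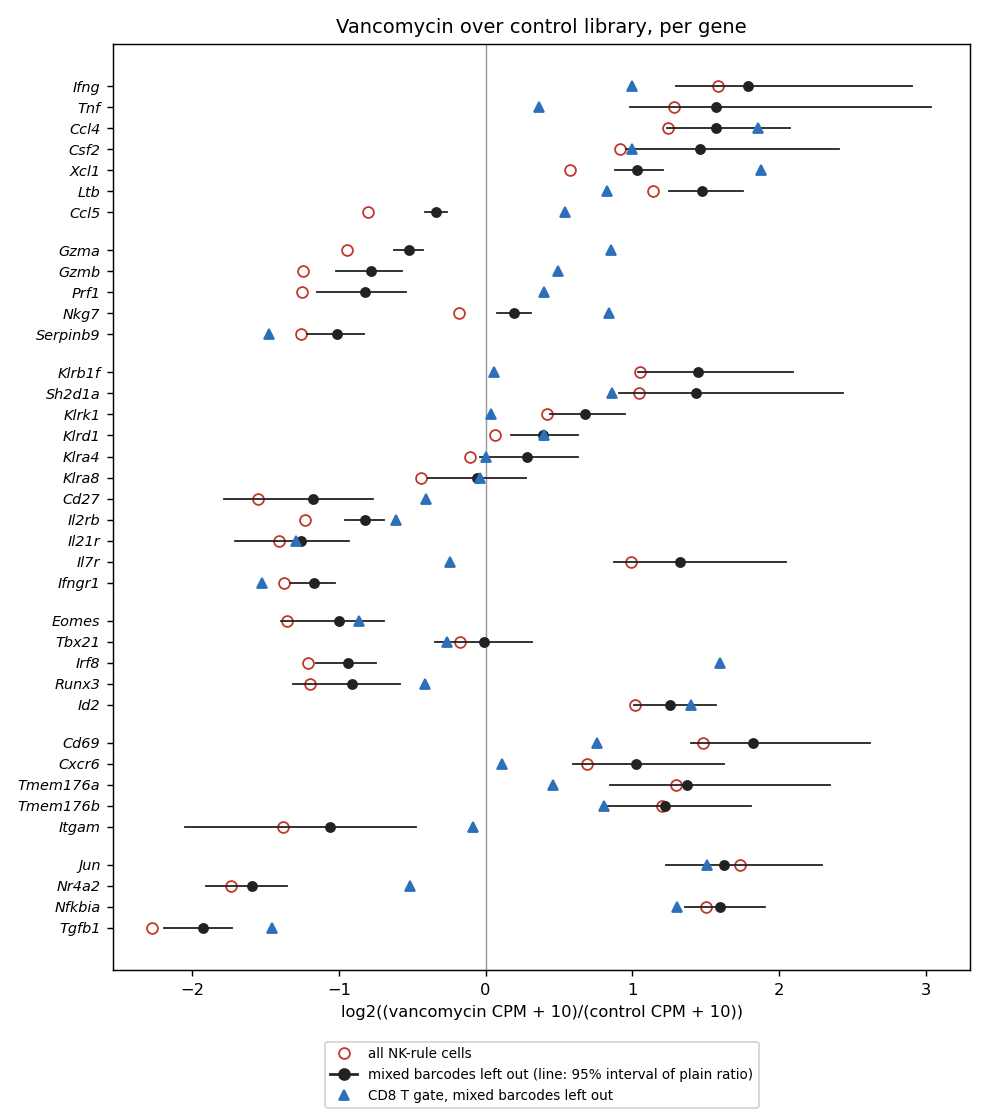
Log2 ratio of the vancomycin over the control library for genes of the NK lists in all NK-rule cells (open circles), without mixed barcodes (filled circles, with the 95% interval of the ratio without added CPM, counting error only) and in CD8 T cells without theirs (triangles). Ifng, Tnf and Cd69 lie right of their CD8 T values, and Gzma, Gzmb, Prf1 and Irf8 lie left of 0 where CD8 T cells lie right of it.

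Signalling genes split. Of 17 immediate early and NF-kappaB feedback genes 3 were higher and 3 lower. Jun was at 287 and 79.4 CPM (1.73, and 1.63 without mixed barcodes), and 1.51 in CD8 T cells. Nr4a2 was at 238 and 816 CPM (−1.74 and −1.59), and −0.51 in CD8 T cells. Of 10 TGF-beta pathway genes 0 were higher and 2 lower, and without mixed barcodes 0 and 3, where 4.69% and 4.72% of all genes were lower. Less the reference 0 were lower, with a median of −0.10. Tgfb1 was at 281 and 1396 CPM (−2.27), and the median log2 ratio of the reference gates was −1.55. Less the reference and without mixed barcodes it was −0.47. Of 16 type I interferon response genes 6 were higher and 0 lower, against 11.5% and 4.69% of all measured genes. Without mixed barcodes 3 of 12 were higher, with a median of 0.56. Less the reference as well, 0 were higher, and the median was 0.44 against −0.09 over all genes. Ifitm3 had 145 UMIs in 18 vancomycin cells, 56 of them in 1 cell, and 0 in the control library. Against the floor of 3 control counts it was at least 25.6-fold higher, and the interval of its ratio began at 20.5. Without mixed barcodes these values were 2.60 and 1.71.

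Of 11 measured proliferation genes 0 were higher and 2 lower, and less the reference and mixed barcodes 0 and 4, where 4.69% and 1.92% of all genes were lower. Mcm6, a subunit of the replicative helicase, was found in 35 and 28 cells, and Pcna, the sliding clamp, in 34 and 25. Mki67 had 14 and 21 UMIs in 7 and 3 cells, and 18 of the 21 were in 1 control cell. Its log2 ratio was −1.07, and 0.44 without the cell of most UMIs in each library, so that 1 cell decides its direction. For other members too, 1 control cell held many of the UMIs: 19 of 21 for Top2a, 8 of 9 for Rrm2 and 19 of 43 for Stmn1. Mcm6 (12 of 71) and Pcna (10 of 48) were spread more widely. The lower counts of the list were not repeated without such cells. Hist1h2ap, a histone gene with the lowest ratio of all named genes (2.15 and 338 CPM), had 147 of its 166 control UMIs in 1 cell, and its log2 ratio of −4.84 was −2.18 without the cell of most UMIs in each library. It was also lower in the vancomycin library in all 5 reference gates, from −3.37 (CD8 T cells) to −1.37. In the remaining lists at most 2 genes differed 2-fold in either direction: heat shock 2 of 10 higher and 0 lower, MHC class I 1 of 11 and 0, respiratory chain 1 of 22 and 1, glycolysis 0 of 12 and 0, and RAS-MAPK feedback 1 of 9 and 0.

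Beyond the lists, Ly6a (Sca-1), a surface gene of activated lymphocytes, was among the highest after subtraction of the reference. It was at 322 and 30.5 CPM, in 35 and 7 cells, with a log2 ratio of 3.03. The ratio was 2.97 without mixed barcodes and 3.48 without the cell of most UMIs in each library, against 0.71 in CD8 T cells. Among the lowest, Tnfrsf1b, a TNF receptor, was at 89.3 and 499 CPM (−2.36, and −2.07 without mixed barcodes), and −1.45 in CD8 T cells. Vegfa was at 78.6 and 391 CPM (−2.18 and −1.75), against −0.17 in CD8 T cells. Rgs16 was at 30.1 and 145 CPM (−1.94 and −1.47), against 0.28 in CD8 T cells. Myb (20.4 and 124 CPM), Traf4 (28.0 and 145 CPM) and Nrarp (62.4 and 328 CPM), a Notch target, had log2 ratios of −1.88, −1.77 and −1.98 without mixed barcodes. They were lower in CD8 T cells as well (−0.74, −1.31 and −1.94).

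NK-rule cells with and without an Eomes UMI differed in both libraries in several Klra genes and in most genes of the residency list. Eomes UMIs were found in 69 of 155 vancomycin cells (44.5%, 36.5 to 52.7) and 55 of 91 control cells (60.4%, 49.6 to 70.5). In cells thinned to 1000 UMIs the shares were 18.1% (12.4 to 25.0) and 23.6% (15.2 to 33.8), with 2 control cells too shallow, and 4.68% and 8.30% in CD8 T cells. The intervals of the 2 libraries overlapped with and without thinning. This does not show that the shares are equal, and their difference was not tested. A cell with no Eomes UMI may still express the gene, and 33 and 12 cells had exactly 1 UMI. Without mixed barcodes the split gave 52 cells with and 71 without in the vancomycin library, and 55 and 36 in the control library, with median depths of 3980.5 and 3964, and 5716 and 4023.5 UMIs.

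Of 245 list genes measured, 14 were higher and 33 lower in Eomes-positive cells in both libraries with intervals of the plain ratio that left out 1, and 5 (Ccl4, Ifng, Nfkbia, Nr4a1 and Hspd1) had such intervals on opposite sides. Of all 6293 genes measured, 35 (0.556%) were higher and 79 (1.26%) lower by the same criterion, and 14 (0.222%) lay on opposite sides. The genes named here were taken from these after their values were seen. Klra8 (Ly49H), which binds a cytomegalovirus protein, was at 511 CPM with and 120 CPM without Eomes in the vancomycin library, and at 432 and 36.3 CPM in the control library. Klra4 was at 553 and 154 CPM, and at 325 and 145 CPM. Itgam (CD11b), a gene of mature NK cells, was at 61.9 and 21.5 CPM, and at 113 and 48.5 CPM. Gzma was at 3501 and 1881 CPM, and at 3969 and 3187 CPM. Of the 6 Klra genes measured, 4 (Klra3, Klra4, Klra8 and Klra9) were higher with Eomes in both libraries by this criterion, and Klra1 and Klra7 were not among the 14.

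Of the 12 measured genes of the type 1 innate lymphoid cell and residency list, 10 were higher in cells without an Eomes UMI in both libraries and 0 lower, and the exceptions were Ikzf2 and Itga1. Cxcr6, the receptor for Cxcl16, was in 45.1% of vancomycin and 44.4% of control cells without Eomes, and in 7.69% and 1.82% of those with it. Its level was 336 against 20.6 CPM, and 273 against 3.07 CPM. Tmem176b was at 385 and 49.5 CPM, and at 254 and 18.4 CPM, and Tmem176a followed it. Cd200r1 was in 22.5% and 19.4% of cells without and in 1.92% and 1.82% of cells with Eomes. Il7r, the interleukin 7 receptor, was at 252 and 103 CPM in the vancomycin library and 194 and 6.13 CPM in the control library. Cd226 (DNAM-1, an activating receptor) was at 265 and 86.6 CPM, and at 230 and 64.4 CPM. Cxcr3, Il21r, Il2ra, Klrb1b, Tnfsf10 (TRAIL), Lag3, Pdcd1 and Tnf were also among the 33. Gzmc was at 690 and 8.25 CPM, and at 557 and 9.20 CPM, but in only 11.3% and 16.7% of cells without Eomes. Csf2, Mki67 and Rrm2 are also among the 33 and were in at most 7.04% of those cells.

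**Figure D5:**
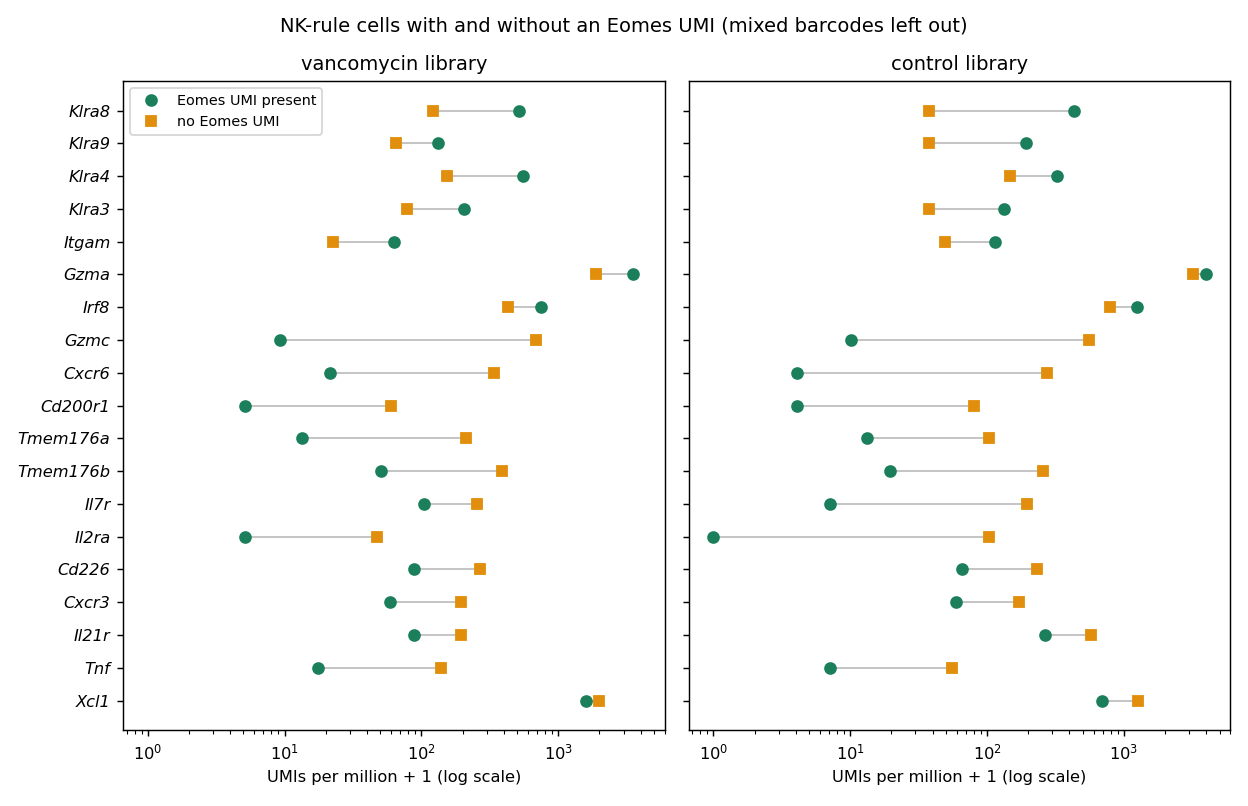
Level in CPM, with 1 added, on a log scale for 19 genes in NK-rule cells with (circles) and without (squares) an Eomes UMI, mixed barcodes left out, in the vancomycin (left) and control (right) library. Klra, Itgam, Gzma and Irf8 are higher with Eomes, and the genes from Gzmc downward are higher without it, in both libraries.

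Both kinds of genes were also counted per cell. Of the vancomycin cells 84 (54.2%, 46.0 to 62.2) had Eomes, Itga2 or at least 2 Klra UMIs and fewer than 2 UMIs of Cxcr6, Itga1, Cd200r1, Tmem176a and Tmem176b, and of the control cells 62 (68.1%, 57.5 to 77.5). The reverse held for 42 (27.1%, 20.3 to 34.8) and 16 (17.6%, 10.4 to 27.0). Both conditions were met in 24 and 7 cells and neither in 5 and 6. The intervals of the 2 libraries overlapped in each class. This was counted without thinning, and the number of UMIs of a cell sets what it can show.

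Several differences between the libraries were present in both Eomes subsets. Among 202 list genes measured in both subsets without mixed barcodes, leaving out those of the rule, 23 had intervals above 1 and 27 below 1 in both, and 3 (Gzmb, Nr4a1 and Serpinb6b) lay on opposite sides. Over all 3619 genes measured in both subsets these shares were 4.42%, 6.74% and 0.193%. Prf1 was at 293 CPM in vancomycin and 515 CPM in control cells with Eomes, and at 246 and 406 CPM in those without, where the interval of the ratio became 0.517 to 1.15 without the cell of most UMIs in each library. Cd27 was at 128 and 239 CPM, and at 58.5 and 158 CPM. Xcl1 was at 1600 and 693 CPM, and at 1998 and 1272 CPM. Ly6a was at 169 and 9.20 CPM, and at 409 and 72.7 CPM. Cd27 was thus lower, and Xcl1 and Ly6a higher, in either subset of the vancomycin library. For Ly6a this rests on few control counts, 15 UMIs in 7 cells over both subsets, 8 of them in 1 cell without Eomes. Ifng was at 190 and 12.3 CPM with Eomes (46 and 4 UMIs), and at 111 and 78.8 CPM without (36 and 13 UMIs), where the interval of the ratio, 0.729 to 2.89, included 1. Since 9 of those 13 control UMIs were in 1 cell, the ratio without the cell of most UMIs in each library was 3.38 (1.17 to 13.3). Whether this ratio differs between the subsets was not tested.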

How the data were processed

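Single-cell 5′ libraries (10x, version 2 chemistry) were deposited as UMI counts per gene and barcode, made with Cell Ranger 7.2.0 (vancomycin) and 6.0.1 (control), per the file headers. The submitters' processing notes name mm10 as build and Partek as a further tool. No source used here says if intron reads were counted. Barcodes with at least 500 UMIs, 200 genes and at most 20% mitochondrial UMIs were kept. Counts were summed over NK-rule cells per library and scaled to CPM, with 10 CPM added before log2 ratios, so that changes of low genes are understated. Intervals are exact Clopper-Pearson or conditional Poisson intervals at 95%. The ratio and its interval were tested on simulated Poisson counts with known changes. These hold no spread between cells and no foreign RNA, so the test cannot show how the intervals fare with either. Genes were named by level, by ratio and by list: the 6 markers, the 2 highest and 2 most different members of each of 19 lists, the 10 highest and 10 lowest ratios, the 8 each way less the reference, and the 15 each way against CD8 T cells, and other names were chosen after their values were seen. Members and lists were chosen with earlier results of these data known. Alternatives were pseudocounts, filters, scaling with edgeR 4.0.16 and DESeq2 1.42.0 factors, thinning, receptor thresholds and removal of Scrublet-marked (scanpy 1.11.5), Trac-positive or mixed barcodes. Mixed barcodes, Eomes subsets and removal of single cells were added after the data were seen. Of the files' gene IDs, 99.61% matched GENCODE M21. Some genes are not reported here.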

Additional observations from a re-analysis of the deposited data

Results flagged for a closer look

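For 3 genes of the lists the ratio of the vancomycin over the control library was above 1 in NK-rule cells with an Eomes UMI and below 1 in those without, with intervals of counting error that left out 1 on either side (mixed barcodes left out). The difference itself was not tested, and each group is 1 library. Gzmb (granzyme B) was at 553 and 356 CPM with Eomes and at 434 and 1799 CPM without, a difference of 2.65 between the log2 ratios. In the control cells without Eomes 120 of its 297 UMIs came from 1 cell, and without the cell of most UMIs in each library the levels were 369 and 1093 CPM. Nr4a1, a gene induced by receptor signalling, was at 825 and 392.3 CPM with Eomes and at 613 and 788 CPM without, a difference of 1.41. Serpinb6b, an inhibitor of granzyme A, was at 581 and 405 CPM with Eomes and at 311 and 473 CPM without, a difference of 1.10. Without the cell of most UMIs in each library, the interval of its ratio in cells without Eomes was 0.510 to 1.002.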

How the results depend on the processing

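No paired analysis was possible because each group is 1 library, and for the same reason no replicate could be left out. The NK-rule share of 0.986% in the vancomycin library was 1.27% with 1 receptor UMI, 0.560% with the rule applied after thinning, 1.94% of Ptprc-positive barcodes and 0.782% with mixed barcodes taken from the NK-rule cells only (123 of all 15726 kept barcodes). The control share of 2.22% was 1.002% after thinning and 2.89% of Ptprc-positive barcodes. After thinning there were 7.88 and 6.12 NK-rule cells per 100 CD8 T cells. The share with an Eomes UMI was 44.5% and 60.4% without thinning. The 887 genes at least 2-fold higher became 247 with 50 CPM added, 190 with thinned cells, 256 less the reference, 437 without Scrublet-marked barcodes, 249 without mixed barcodes, 96 without these and less the reference, and 200 and 253 in Eomes-positive and Eomes-negative cells. The 360 lower became 582 and 81 with 1 and 50 CPM added, 200 with thinned cells, 161 less the reference and 121 less the reference and mixed barcodes. The 166 genes higher than in CD8 T cells became 63 with 50 CPM added.

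Of 62 named genes past 2-fold, 16 turned sign in at least 1 setting in which they had a UMI, and the cause was not tested. Klk6 and Cxcl9 had no UMI in either library without mixed barcodes, and Enpp2, Ptgds and Slc12a2 none in Eomes-negative cells. Less the reference, log2 ratios were −0.53 for Cmss1, 0.22 for Ndufb4, −0.092 for Psmb9, −1.01 for S1pr5, 0.063 for Skil and 0.32 for Xist. Without mixed barcodes they were −0.25 for Lamp1, −0.23 for S1pr5 and −0.057 for Slc12a2. Without mixed barcodes and less the reference they were −0.010 for Aplp1, −0.48 for Cmss1, −0.39 for Enpp2, −0.23 for Hspa1a, −0.14 for Lamp1, −0.0051 for Pcdh9, −0.34 for Ptgds, 1.03 for Rgs1, −0.38 for S1pr5, −0.078 for Slc12a2 and 0.24 for Xist. In Eomes-positive cells they were −0.19 for Ifit3, −0.14 for Lamp1, 0.11 for Mki67 and −0.50 for S1pr5, and in Eomes-negative cells −0.23 for Lamp1. Mki67 was at 0.70 without Trac-positive barcodes and 0.44 without the cell of most UMIs in each library. Before subtraction Xist was lower in the vancomycin library, with 64 and 156 UMIs in 26 and 49 NK-rule cells. In CD8 T cells without mixed barcodes it was at 61.7 and 387 CPM (−2.47). The cause of this difference was not tested. Classes with few cells limit low genes: a gene needed 20 UMIs over both libraries to be counted.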

Other observations

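Marker lists of 10 other cell types were summed over NK-rule cells, and each level is given for the vancomycin library, for it without mixed barcodes, and for the control library. The myelin and dendritic cell lists stand with the results. T cell genes were at 260, 323 and 409 CPM and group 2 innate lymphoid cell genes at 179, 173 and 238 CPM. B and plasma cell genes were at 322, 407 and 126 CPM. Microglia and macrophage genes were at 230, 74.0 and 61.1 CPM, and erythroid genes at 2014, 52.9 and 55.0 CPM. Astrocyte genes were at 75.3, 7.05 and 2.04 CPM. Neutrophil and fibroblast genes were at or below 3.23 CPM in each.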
